A study of Mus musculus with 6 samples.

Results

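Fc gamma receptors bind the constant part of IgG antibodies and let dendritic cells and macrophages take up, present and respond to antibody-coated targets. The activating receptors FcγRI (Fcgr1), FcγRIII (Fcgr3) and FcγRIV (Fcgr4) signal through the common gamma chain Fcer1g, whose tyrosine motif (ITAM) is phosphorylated by Src-family kinases such as Lyn and then recruits the kinase Syk. FcγRIIB (Fcgr2b) carries an inhibitory motif (ITIM) that recruits the phosphatase SHIP1 (Inpp5d), and the neonatal receptor FcRn (Fcgrt) recycles IgG inside the cell. These 9 genes were picked by symbol from a read count table of 31205 genes, and all 9 passed the filter on low counts, among 11453 genes tested.

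The cells were DC2.4, an immortalised mouse dendritic cell line. The labels give 3 libraries of genotype Control and 3 of genotype PD-L1 knockout, both in the DC2.4 line, and name no agent, time or treatment. They do not say whether the knockout is 1 clone or whether libraries came from separate cultures, so the p-values may rest on technical spread alone. Libraries held 10918498 to 23250065 counts.

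Cd274, the targeted gene that encodes PD-L1, had 4.65, 5.87 and 6.83 CPM (reads over the TMM-scaled library total) in control libraries 1 to 3 and 7.70, 5.44 and 8.11 in knockout libraries 1 to 3, with overlap (log2 fold change 0.28; edgeR, adjusted p = 0.415). Reads per gene do not show a small change in coding sequence, so this transcript does not check the labels, and knockout and control here mean the libraries so labelled. The leukocyte gene Ptprc (180 to 256 CPM) and the myeloid transcription factor Spi1 (142 to 203 CPM) were present in all 6 libraries, as were the integrins Itgam (22.2 to 33.4) and Itgax (25.9 to 79.7) and the receptor Csf1r (126 to 282). Of 20 myeloid and dendritic markers, 1 to 5 were at 0 in a library, and their summed level was 1890 to 2100 CPM in control and 1670 to 1950 in knockout. Flt3, Batf3, Ccr7, Mertk, H2-Aa and H2-Ab1 of that list had at most 0.65 CPM in any library. Among the others, Irf8 had 40.8 to 48.5 CPM and Zbtb46 had 4.28 to 8.71. Of 14 stromal, epithelial and endothelial markers, Col1a1 (132 CPM) and Fn1 (81.9 CPM) were found in control library 2 and were at most 0.36 CPM elsewhere. Results for the 9 genes are therefore also given without that library. Of the myeloid list 14 were tested, of which 3 were lower (Lyz2, Csf1r and Zbtb46) and 0 higher, beside 13.5% and 11.8% of all genes tested. The 12 mast cell and neutrophil markers, cells that also carry Fc receptors, summed to 0.89 to 4.86 CPM in control and 0.54 to 0.98 in knockout, and 7 to 9 of them were at 0 in a library. Of 15 lymphocyte markers, which summed to 22.2 to 26.5 CPM in control and 14.4 to 16.4 in knockout, Cd5 made up most (24.0 and 15.1 CPM on average) and 10 to 12 were at 0. In RNA from a culture, fewer cells carrying a transcript and less of it per cell cannot be told apart, and the part of these markers in the results was not tested.

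The receptor chains and the adaptor that serves them have separate start regions, which are shown because Fcgr1 was lower and Fcer1g higher in knockout, while Fcgr3 and Fcgr4 did not pass the test. RefSeq (GRCm38.p6, the mm10 assembly) gave 10 start sites for 8 of the 9 genes. The windows of 250 bases before to 50 after each start were searched on both strands for GAGGAA, a core recognised by the myeloid factor PU.1 (Spi1), and for TTCNNNGAA, the core of sites bound by STAT factors. The bases before the start that lie outside annotated exons of the gene are printed 5′ to 3′ on the gene's strand. The window of Fcgr3 lies within a longer annotated model of that gene. Capitals mark matches, and TTCCTC is GAGGAA on the other strand.
Fcgr1, chr3:96293970-96294119, minus strand: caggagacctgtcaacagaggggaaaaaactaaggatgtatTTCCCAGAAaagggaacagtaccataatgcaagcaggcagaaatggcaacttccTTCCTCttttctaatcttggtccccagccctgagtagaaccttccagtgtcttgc
Fcgr3, chr1:171059404-171059553, minus strand: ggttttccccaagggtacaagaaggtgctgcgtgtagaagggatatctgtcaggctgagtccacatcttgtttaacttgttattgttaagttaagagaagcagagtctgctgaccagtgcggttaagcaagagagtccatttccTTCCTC
Fcgr4, chr1:171018776-171018919, plus strand: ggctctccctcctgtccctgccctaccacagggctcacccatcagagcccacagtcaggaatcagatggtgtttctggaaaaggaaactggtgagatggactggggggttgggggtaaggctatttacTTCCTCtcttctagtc
Fcer1g, chr1:171234366-171234499, minus strand: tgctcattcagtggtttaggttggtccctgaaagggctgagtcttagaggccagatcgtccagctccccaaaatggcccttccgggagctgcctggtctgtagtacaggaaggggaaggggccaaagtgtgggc

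All 3 activating receptor genes held GAGGAA, with its first base 55 bases before the start in Fcgr1, 6 in Fcgr3 (15 before a second annotated start) and 22 in Fcgr4. So did Syk, at 1 of its starts, and Inpp5d, which made 5 of the 8 genes. The windows of Fcgr2b, Fcer1g and Fcgrt held neither core. TTCNNNGAA was found in 1 of the 8 genes, Fcgr1, where it began 109 bases before the start. Over 32851 RefSeq starts, 28.3% of windows of this length held GAGGAA and 8.3% held TTCNNNGAA. These shares are per start, while a gene was counted above with a match at any of its starts, so they are not directly comparable. A match is a run of letters, not a shown binding site. The transcript of Spi1 did not pass the test (log2 fold change 0.22; edgeR, adjusted p = 0.32).

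Of the 9 genes, 4 were lower and 1 was higher in knockout than in control by edgeR's quasi-likelihood test at an adjusted p under 0.05, beside 13.5% lower and 11.8% higher of all genes tested (25.3% in either direction). Fcgr1, Fcgr2b, Syk and Inpp5d were lower and Fcer1g was higher. Groups did not overlap for 7 of the 9 genes, 6 lower and 1 higher, beside 43.0% of all genes tested (21.8% lower and 21.1% higher). The median log2 fold change of the 9 was -0.42, against 0.01 over all genes. Calls of single members in other settings are read against the share of all genes called there. It was 25.2%, 24.9% and 25.1% with other scalings (RLE, upper quartile, total counts), 18.6% with no filter and 26.1% with one of 1 CPM in 3 libraries. DESeq2 called 26.9%, limma-voom 27.4% and the fit with a replicate block 28.0%. Leaving out control library 1, 2 or 3 gave 21.2%, 5.50% and 15.4%, and leaving out knockout library 1, 2 or 3 gave 42.2%, 8.89% and 10.4%. Without control library 2, Fcgr1 was the 1 member called.

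**Figure D1:**
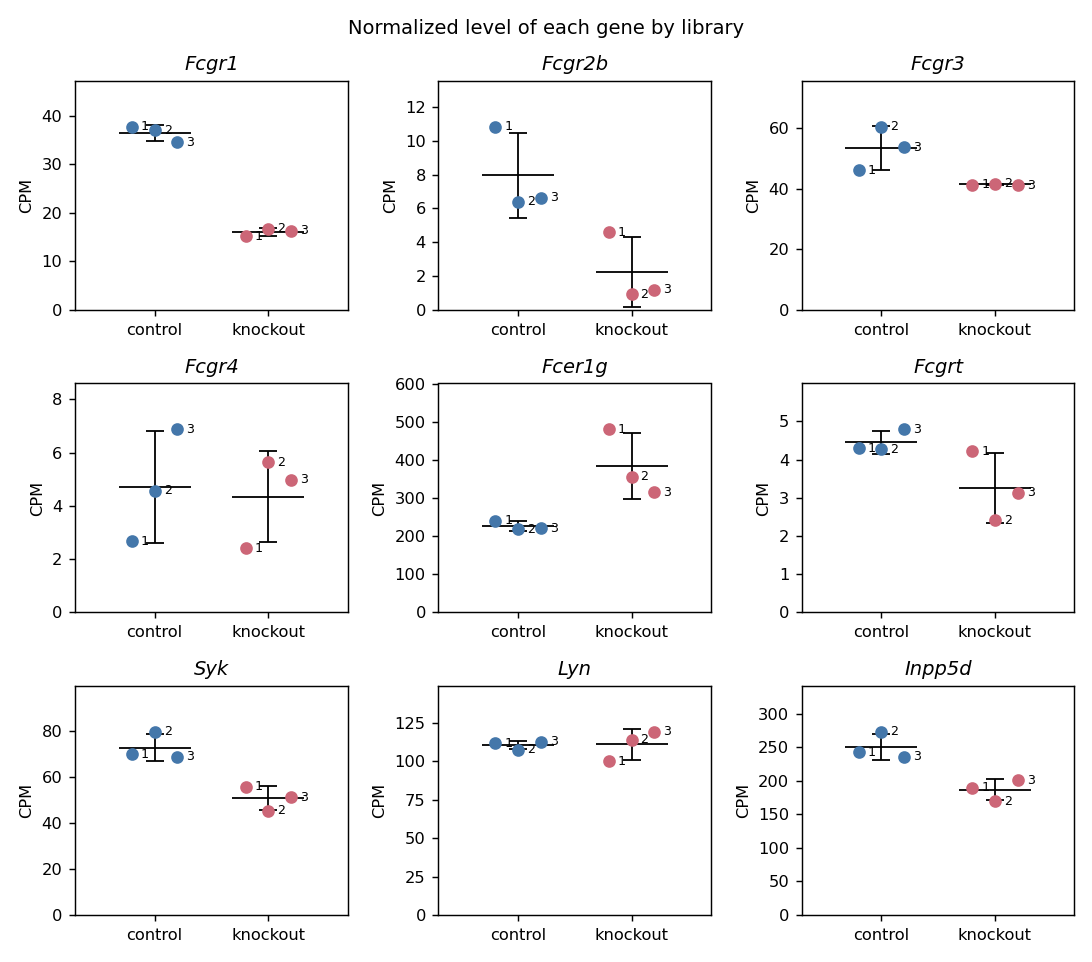
TMM-scaled CPM (vertical axes, each from 0) of the 9 genes in the 3 control (blue) and 3 knockout (red) libraries, numbered by replicate; bars give the mean and SD. The knockout points of Fcgr1 (15.2 to 16.8) lie well under the control points (34.6 to 37.8), while those of Fcgr4 and Lyn overlap with the controls.

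Fcgr1 encodes the high-affinity IgG receptor, the member of the family that can bind monomeric IgG (ENSMUSG00000015947.10, chromosome 3, 96282909 to 96293969, mm10, minus strand). Its level was 37.8, 37.0 and 34.6 CPM in control libraries 1, 2 and 3 and 15.2, 16.8 and 16.3 CPM in knockout libraries 1, 2 and 3. Every knockout library was under every control library, and the libraries of a group lay close together. The mean fell from 36.5 ± 1.68 to 16.1 ± 0.83 CPM (SD, n = 3), to 44.1% of control, a log2 fold change of -1.18 ± 0.13 (SE; 95% confidence interval from -1.47 up to -0.88; edgeR, adjusted p = 0.000625). It passed the test in all 17 alternative settings, with log2 fold changes from -1.33 to -1.14, including the fit without control library 2 (-1.16, adjusted p = 0.00492).

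Fcgr2b, the inhibitory receptor (ENSMUSG00000026656.15, chromosome 1, 170958617 to 170976547, minus strand), had the largest change on the log scale and the widest error. It had 121, 108 and 166 reads in control libraries 1 to 3, or 10.8, 6.40 and 6.63 CPM, and 61, 14 and 24 reads in knockout libraries 1 to 3, or 4.61, 0.94 and 1.19 CPM. Knockout library 1 stood between the controls and the other knockout libraries. The mean fell from 7.95 ± 2.49 to 2.25 ± 2.05 CPM, a log2 fold change of -1.85 ± 0.53 (SE; 95% confidence interval from -3.02 up to -0.68; edgeR, adjusted p = 0.0305). Without knockout library 1 the log2 fold change was -2.86 (adjusted p = 0.000109). The call was lost when control library 1 (-1.57, adjusted p = 0.0913) or 2 (-1.98, 0.0758) was left out, and likewise knockout library 2 (-1.49, 0.101) or 3 (-1.52, 0.103).

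Fcgr3, a low-affinity activating receptor whose chain is bound by immune complexes (ENSMUSG00000059498.13, chromosome 1, 171051174 to 171064935, minus strand), did not pass the test. It had 46.1, 60.4 and 53.7 CPM in control libraries 1 to 3 and 41.3, 41.7 and 41.2 CPM in knockout libraries 1 to 3. The groups did not overlap, but control library 1 stood nearer to the knockout libraries than to control library 2. Means were 53.4 ± 7.19 and 41.4 ± 0.26 CPM, with a log2 fold change of -0.37 ± 0.14 (SE; 95% confidence interval from -0.68 up to -0.06; edgeR, adjusted p = 0.0748). It passed with total counts alone (-0.52, adjusted p = 0.0296), without control library 1 (-0.46, 0.0414) and after removal of length and GC trends described further on (-0.54, 0.0169), but not without control library 2 (-0.27, 0.318).

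Fcgr2b and Fcgr3 have closely related sequences, and how reads matching both were counted is not given in the sources used here. Of the 1733 distinct stretches of 50 bases in the annotated transcripts of Fcgr3, 166 (9.58%) also occur in Fcgr2b, where they make up 2.92% of 5685. Transcripts of Fcgr1, Fcgr4, Fcer1g, Fcgrt and Syk shared none (0 stretches) with another annotated gene. Lyn shared 743 of 4065 stretches (18.3%) with other annotated genes, 543 of them with Gm11787. Inpp5d shared 44 of 7698 (0.572%), and Fcgr2b shared 6.95% with any other gene. Fcgr2b also overlaps the antisense gene Gm38204, Fcgrt the antisense gene Gm45669, and Lyn 4 annotated genes on the other strand, whose reads cannot be separated without a known strand setting. Gm38204 averaged 0.05 CPM in control and 0 in knockout, and Gm45669 was at 0 in all 6 libraries.

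Fcgr4, an activating receptor for some IgG subclasses (ENSMUSG00000059089.4, chromosome 1, 171018920 to 171029761, plus strand), was low and variable in both groups. It had 2.68, 4.56 and 6.87 CPM in control libraries 1 to 3 and 2.42, 5.64 and 4.97 CPM in knockout libraries 1 to 3. The groups overlapped, and library 1 was the lowest in each. The log2 fold change was -0.13 ± 0.39 (SE; edgeR, adjusted p = 0.821), and its 95% confidence interval, from -1.01 up to 0.74, leaves both a fall and a rise possible. Without control library 2 it was -0.16 (adjusted p = 0.848).

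Fcer1g, the chain that assembles with the 3 activating receptors and carries their ITAM (ENSMUSG00000058715.11, chromosome 1, 171229572 to 171234365, minus strand), was the member that rose. Its level was 241, 218 and 221 CPM in control libraries 1 to 3 and 481, 356 and 315 CPM in knockout libraries 1 to 3. Every knockout library was above every control library, and knockout library 1 was the highest. The mean rose from 226 ± 12.6 to 384 ± 86.3 CPM, 1.7 times the control mean, with a log2 fold change of 0.76 ± 0.17 (SE; 95% confidence interval from 0.39 up to 1.13; edgeR, adjusted p = 0.0127). Without control library 2 it was not called (0.74, adjusted p = 0.0694), and without knockout library 1 it was (0.56, adjusted p = 0.0046).

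Fcgrt, the recycling receptor FcRn (ENSMUSG00000003420.8, chromosome 7, 45092990 to 45103851, minus strand), was low throughout. It had 4.30, 4.27 and 4.80 CPM in control libraries 1 to 3 and 4.23, 2.42 and 3.13 CPM in knockout libraries 1 to 3. Knockout library 1 lay just under the lowest control. The log2 fold change of -0.46 ± 0.28 (SE; 95% confidence interval from -1.08 up to 0.16; edgeR, adjusted p = 0.245) did not pass the test, nor did it without control library 2 (-0.49, adjusted p = 0.389). B2m, the light chain that FcRn needs at the membrane, had 387 to 518 CPM in control and 492 to 612 in knockout, and did not pass either (0.22, adjusted p = 0.309).

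Of the 2 kinases, Syk fell and Lyn did not pass the test. Syk, which docks on the phosphorylated ITAM (ENSMUSG00000021457.14, chromosome 13, 52583173 to 52648792, plus strand), had 69.7, 79.5 and 68.8 CPM in control libraries 1 to 3 and 55.6, 45.3 and 51.1 CPM in knockout libraries 1 to 3. The groups did not overlap, and the means were 72.7 ± 5.96 and 50.7 ± 5.17 CPM, a log2 fold change of -0.52 ± 0.14 (SE; 95% confidence interval from -0.82 up to -0.22; edgeR, adjusted p = 0.0224). The fits that left out control library 2 (-0.45, adjusted p = 0.127) or 3 (-0.56, 0.0515), or knockout library 2 (-0.45, 0.0894) or 3 (-0.52, 0.0795), did not call it. Lyn, a Src-family kinase that phosphorylates both ITAMs and ITIMs (ENSMUSG00000042228.14, chromosome 4, 3678115 to 3813122, plus strand), had 112, 107 and 113 CPM in control libraries 1 to 3 and 100, 114 and 119 CPM in knockout libraries 1 to 3. Its groups overlapped, and its log2 fold change was 0.01 ± 0.12 (SE; edgeR, adjusted p = 0.97), with a 95% confidence interval from -0.27 up to 0.28, and -0.01 (adjusted p = 0.968) without control library 2.

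Inpp5d, the inositol phosphatase SHIP1 that opposes the lipid signal of phosphoinositide 3-kinase (ENSMUSG00000026288.14, chromosome 1, 87620312 to 87720507, plus strand), had 243, 273 and 236 CPM in control libraries 1 to 3 and 189, 170 and 201 CPM in knockout libraries 1 to 3. Each knockout library was under each control library. The mean fell from 251 ± 19.7 to 187 ± 16.0 CPM, a log2 fold change of -0.42 ± 0.13 (SE; 95% confidence interval from -0.71 up to -0.14; edgeR, adjusted p = 0.0384). It was called in 7 of the 17 alternative settings. The call was lost without control library 1 (-0.44, adjusted p = 0.0591), 2 (-0.36, 0.183) or 3 (-0.46, 0.0725), without knockout library 2 (-0.36, 0.13) or 3 (-0.48, 0.0813), and with no filter on low counts (-0.41, 0.055).

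Gene length moved with the direction of change across the whole table, and the members differ widely in length. Log2 fold changes fell by 0.22 on the log2 scale for each doubling of annotated exon length. Among 376 tested genes with up to 1 kb of exon, the class of Fcer1g (0.87 kb), the median log2 fold change was 0.40 and 21.0% were called higher. Among 1976 genes with over 8 kb, the class of Syk (9.36 kb), the median was -0.37 and 34.4% were called lower. Genes of 4 to 8 kb, the class of Inpp5d (7.60 kb), Fcgr2b (5.79 kb) and Lyn (4.07 kb), had a median of -0.08 with 13.4% lower, and those of 2 to 4 kb, the class of Fcgr1 (2.59 kb), a median of 0.18 with 6.1% lower.

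With each library's trend over exon length and GC content removed, the members divided. Fcgr1 (log2 fold change -1.27, adjusted p = 0.000266) and Fcgr2b (-1.72, adjusted p = 0.038) were still lower, and Fcgr3 was called lower. Syk (-0.03, adjusted p = 0.877) and Inpp5d (-0.03, adjusted p = 0.862) were close to 0, with 95% confidence intervals from -0.26 up to 0.21 and from -0.29 up to 0.23. Fcer1g kept a positive change of 0.54 (SE 0.18) that did not pass (adjusted p = 0.0545). In that fit 3 of the 9 genes were lower and 0 higher, beside 8.38% and 18.5% of all genes tested (26.9% in either direction), whose median was 0.13. The unadjusted p of Fcer1g in that fit was 0.0153 (edgeR), and the share of all genes passing without adjustment there is not given here. With the length of the longest transcript in place of all exons, Fcer1g was 0.48 (adjusted p = 0.0867), Syk -0.07 (0.633) and Inpp5d -0.04 (0.807), beside 22.8% of genes called. The source of the length trend was not tested.

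**Figure D2:**
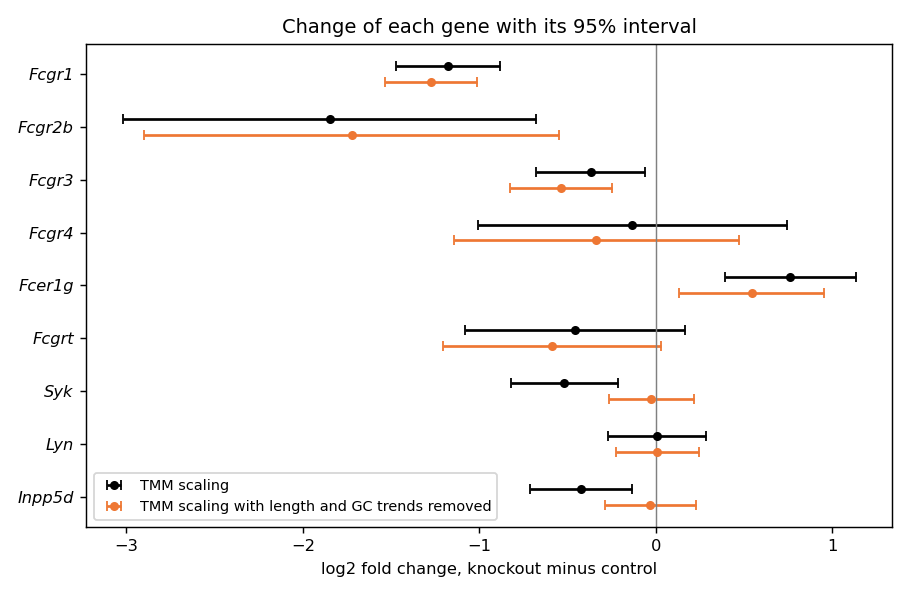
Log2 fold change of each gene (points, knockout minus control, horizontal axis) with its 95% interval, with TMM scaling alone (black) and with length and GC trends removed as well (orange). Fcgr1 and Fcgr2b stay left of 0 in both fits, while Syk and Inpp5d move from -0.52 and -0.42 to -0.03.

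To compare levels between genes, CPM were divided by kilobases of annotated exon. In control cells Fcer1g was by far the most abundant of the 9, at 259 ± 14.4 CPM per kb. Inpp5d (33.0 ± 2.59), Fcgr3 (30.8 ± 4.14) and Lyn (27.2 ± 0.67) followed, and neighbours in that order did not differ beyond their spread. Fcgr1 (14.1 ± 0.65) and Syk (7.76 ± 0.64) were lower. Fcgr4 (3.75 ± 1.67) and Fcgrt (2.12 ± 0.14) overlapped in their spread, and Fcgr2b was the lowest at 1.37 ± 0.43 CPM per kb of exon. Per kb of longest transcript, Fcgr2b (2.24 ± 0.70) overlapped in its spread with Fcgrt (2.52 ± 0.17), and Inpp5d (50.8 ± 3.98) stood above Fcgr3 (39.7 ± 5.33) beyond their spread.

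In knockout cells the order changed only among genes that lay close together. Fcer1g stood at 440 ± 98.7 CPM per kb, Lyn at 27.3 ± 2.45, Inpp5d at 24.6 ± 2.1 and Fcgr3 at 23.9 ± 0.15. Inpp5d lay within the spread of both Lyn and Fcgr3, and Lyn and Fcgr3 did not overlap over the knockout libraries per kb of exon, but did per kb of longest transcript (32.1 ± 2.88 and 30.7 ± 0.19). Fcgr1 had come down to 6.22 ± 0.32, where it overlapped with Syk (5.42 ± 0.55). With the longest transcript as the length, Syk in knockout was 9.45 CPM per kb and so above Fcgr1 (6.22). The longest transcript of Syk holds 5363 of its 9362 annotated exon bases.

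Among the 4 receptor chains, Fcgr3 made up the majority of length-scaled transcript in every library. Its share was 58.8%, 64.6% and 60.8% in control libraries 1 to 3 and 73.5%, 68.3% and 69.4% in knockout libraries 1 to 3. The share of Fcgr1 was 32.3%, 26.6% and 26.2% in control and 18.1%, 18.4% and 18.4% in knockout. So the receptor mixture held more Fcgr3 and less Fcgr1 in each knockout library than in any control library, shares being tied to one another. Fcgr4 made up 4.74% to 10.7% in control and 5.94% to 12.8% in knockout.

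The balance of activating to inhibitory transcript rested on a low denominator. The summed level of Fcgr1, Fcgr3 and Fcgr4 was 43.3, 52.8 and 49.8 CPM per kb in control libraries 1 to 3 and 31.6, 35.0 and 34.0 in knockout libraries 1 to 3, with no overlap. Divided by the level of Fcgr2b, it gave ratios of 23.1, 47.7 and 43.5 in control and 39.7, 216 and 165 in knockout. Knockout library 1 lay within the control range, and the other knockout libraries lay above it. The ratio of Fcer1g to the summed activating receptors was 6.37, 4.73 and 5.07 in control and 17.4, 11.6 and 10.6 in knockout, without overlap. These sums use members whose changes were already known, so they are given as descriptions with no test.

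**Figure D3:**
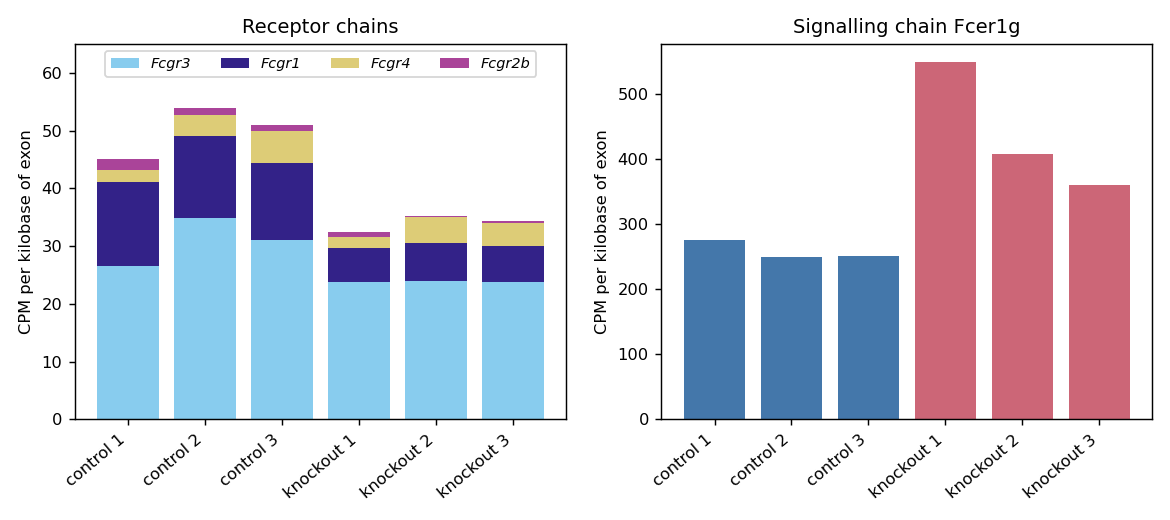
Left, TMM-scaled CPM per kilobase of exon (vertical axis, from 0) of the 4 receptor chains stacked for each library; right, the same quantity for the signalling chain Fcer1g. The stacks are lower in the 3 knockout libraries, mostly by the Fcgr1 and Fcgr3 segments, while the Fcer1g bars are higher (361 to 550 against 249 to 276).

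Fcgr2b, Fcgr4, Fcgr3 and Fcer1g lie within 276 kb on chromosome 1, in that order, and their calls differed. Among the 5 genes of the count table on either side of the receptor cluster, Sdhc, a subunit of succinate dehydrogenase, was higher (log2 fold change 0.50, adjusted p = 0.0287), and the other tested ones, such as Atf6 (-0.11, adjusted p = 0.659), were not called. Next to Fcer1g, Tomm40l was not called (0.05, adjusted p = 0.883). Beside Fcgrt, Prr12 was lower (-0.66, adjusted p = 0.0273), and was not called with length and GC trends removed (-0.22, adjusted p = 0.24). Neither Sdhc nor Prr12 was called without control library 2. Beside Fcgr1 on chromosome 3, 2 of the 10 nearest genes had enough reads to be tested, Gm20633 and Terc, and neither was called.

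**Figure D4:**
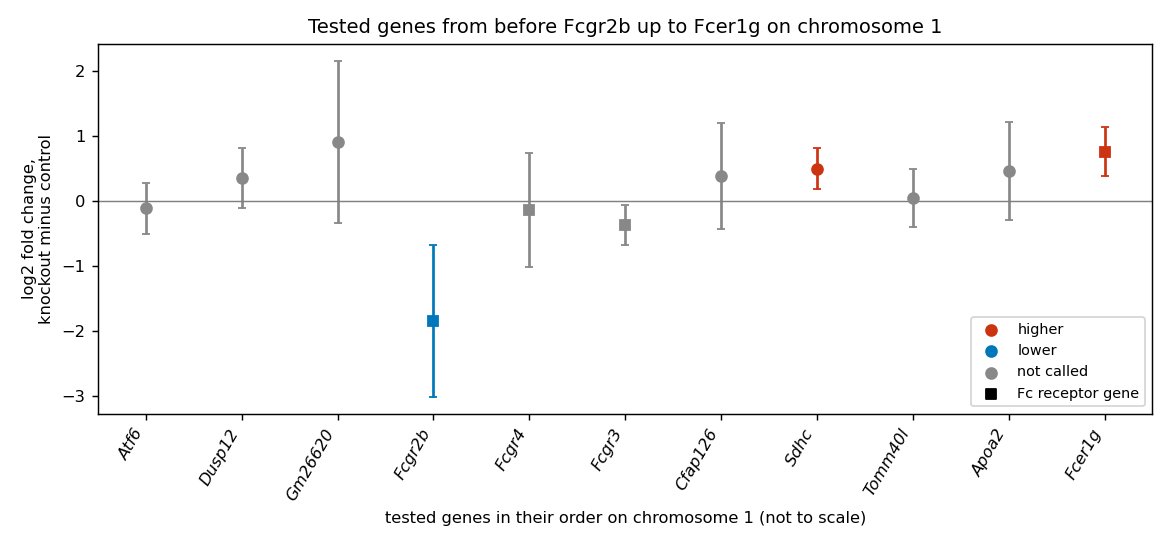
Log2 fold change (vertical axis, knockout minus control) with its 95% interval for the tested genes from before Fcgr2b up to Fcer1g on chromosome 1, in chromosome order; squares are Fc receptor genes and colours give the call. Fcgr2b (-1.85) and Fcer1g (0.76) lie on opposite sides of 0, with Fcgr4 and Fcgr3 between them not called.

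For each of the 5 called members, the 2 genes with the highest Pearson r of log2 CPM over the 6 libraries were found among 9275 genes. Since libraries of 2 groups share depth and genotype, r mostly reflects the group difference and is a description. Sh3kbp1 (r = 0.9978) and Apobr (0.9963) were most like Fcgr1. Sh3kbp1 had 47.5, 34.3 and 32.7 CPM in control and 0.98, 1.21 and 1.39 in knockout, a far larger fall than that of Fcgr1. Ndrg4 (0.9975) and Mysm1 (0.9961) were most like Fcgr2b, and Ndrg4 had the same intermediate knockout library 1 (17.6 CPM, against 4.37 and 4.63). Zcchc4 (0.9962) and Rps6kc1 (0.9954) were most like Fcer1g, Helz2 (0.9962) and Hivep3 (0.9961) most like Syk, and Nek8 (0.9978) and Stat5a (0.9922) most like Inpp5d.

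The wider Fc receptor pathway was read from 9 lists that together held 162 tested genes besides the members. Of these, 34 were lower and 14 higher (29.6% called, beside 25.3% of all genes), with a median log2 fold change of -0.17. After removal of length and GC trends 22 were lower and 23 higher, beside 8.38% and 18.5% of all genes. Without control library 2, 17 were lower and 2 higher, beside 4.07% and 1.43% of all genes tested (5.50% in either direction). Of the 38 called genes of these lists chosen for description, 17 were also called in the same direction without that library, among them Clec4d, Siglec1, Ceacam1, Fgr, Cbl, Ptprj, Inpp4b, Blnk, Malt1, Pak1, Pld1, Pld2, Dock1, Rab11b, Cebpa and Il10ra.

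Of 10 tested kinases that act beside Lyn and Syk, 3 were lower and 0 higher (median -0.25), beside 13.5% and 11.8% of all genes. Removal of length and GC trends left 2 lower and 0 higher, beside 8.38% and 18.5% of all genes. Fgr, a Src-family kinase of myeloid cells, had 1.79 to 3.08 CPM in the control libraries and 0.20 to 0.50 in the knockout libraries (log2 fold change -2.75, SE 0.44; edgeR, adjusted p = 0.00374), and was also lower after the length and GC correction (-2.71). The adhesion kinase Ptk2b was lower before (-0.70) but not after it (-0.30, adjusted p = 0.184). The B cell and myeloid kinase Btk did not pass the test (0.07, adjusted p = 0.682).

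Among 35 tested adaptors and enzymes downstream of Syk, 7 were lower and 3 higher (median -0.10), beside 13.5% lower and 11.8% higher of all genes. With length and GC trends removed 2 were lower and 6 higher (median 0.05), beside 8.38% and 18.5% of all genes, whose median was 0.13. Calls over all genes turned the same way, from 1543 lower and 1353 higher to 954 and 2104. Blnk, an adaptor that links Syk to phospholipase C gamma, fell from 12.2 ± 0.50 to 2.85 ± 0.71 CPM (log2 fold change -2.11, SE 0.23, adjusted p = 0.000587). Vav1, an exchange factor for Rac, rose from 185 ± 26.4 to 303 ± 20.1 CPM (0.71), and the membrane adaptors Lat2 (0.59) and Lat (1.34) rose too, Lat mostly in knockout library 1, and with length and GC trends removed it was not called (1.30, adjusted p = 0.054). The signalling scaffold Malt1 (-0.82) and the phosphoinositide 3-kinase subunits Pik3cg (-0.63) and Pik3r1 (-0.56) were lower, but with those trends removed none of the 3 passed (adjusted p = 0.143, 0.0721 and 0.289). Plcg2, the phospholipase, did not pass the test (0.02, adjusted p = 0.919).

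Of 16 tested negative regulators, 6 were lower and 1 higher (median -0.28), beside 13.5% and 11.8% of all genes. With length and GC trends removed 3 were lower and 1 higher (median -0.06), beside 8.38% and 18.5% of all genes. Cbl, a ubiquitin ligase that acts on activated receptors and Syk, went from 179 ± 25.8 to 76.1 ± 12.0 CPM (log2 fold change -1.23, SE 0.16), and the receptor phosphatase Ptprj from 65.1 ± 4.75 to 35.7 ± 3.87 (-0.87). Both remained lower after the length and GC correction (-0.68 and -0.52), but Ubash3b did not (-0.66 before, -0.37 with adjusted p = 0.0548 after). Inpp4b, a lipid phosphatase, had 3 reads over the knockout libraries, all in library 3, against 113 in control. The control-to-knockout ratio was 34.2, with a 95% counting interval of 11.4 to 168. That interval pools the reads of a group and leaves out the spread between libraries. By edgeR the log2 fold change was -5.15 (95% confidence interval from -7.01 up to -3.29, adjusted p = 0.00405). Dok3, an adaptor, rose (0.58). The phosphatase Ptpn6 (SHP-1), which binds ITIMs, did not pass the test (0.17, adjusted p = 0.457).

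Of 13 tested genes in the list of ITIM receptors, 5 were lower and 0 higher (median -0.43), beside 13.5% and 11.8% of all genes. Removal of length and GC trends left 3 lower and 1 higher (median -0.32), beside 8.38% and 18.5% of all genes. Siglec1, a sialic acid binding receptor, went from 5.60 ± 2.08 to 0.98 ± 0.23 CPM (log2 fold change -2.49), and the adhesion receptor Ceacam1 from 3.66 ± 0.88 to 0.42 ± 0.27 (-3.13). Siglec1 is counted with this list although its own tail has no ITIM. Sirpa, the receptor for CD47, was lower (-0.43), but with length and GC trends removed it was not called (-0.23, adjusted p = 0.126). Of 12 tested receptors and adaptors with an activating ITAM route, 2 were higher and 0 lower (median -0.16), beside 11.8% and 13.5% of all genes. Removal of those trends left 2 higher and 1 lower, beside 18.5% and 8.38% of all genes. Clec4d, a C-type lectin that pairs with Fcer1g, rose from 75.2 ± 6.53 to 133 ± 29.6 CPM (0.83), and Trem2, which pairs with the related adaptor Tyrobp, from 123 ± 10.3 to 195 ± 26.2 (0.66). Tyrobp itself had 110 to 149 CPM in control and 125 to 168 in knockout, with overlap, and did not pass (0.26, adjusted p = 0.256). Of 12 other Fc and Fc-like receptors 2 were tested, Fcrl1 and the cytosolic antibody receptor Trim21. By edgeR 0 passed, beside 25.3% of all genes tested. With no adjustment for multiple tests 0 passed as well, beside 4680 of 11453 genes at an unadjusted p under 0.05. A list with 2 tested genes is too short to read against these shares.

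Of 38 tested genes of the phagocytic cup, 9 were lower and 4 higher (median -0.10), beside 13.5% and 11.8% of all genes. Removal of length and GC trends left 8 lower and 6 higher (median -0.02), beside 8.38% and 18.5% of all genes. The kinase Pak1, an effector of Rac and Cdc42, fell from 43.9 to 16.4 CPM on average (log2 fold change -1.42, SE 0.14), and the phospholipases Pld1 (-2.20) and Pld2 (-1.82) and the Rac activator Dock1 (-1.34) fell as well, all 4 also after the length and GC correction. The 4 higher genes were Cfl1 (0.67), Bin1 (0.57), Arpc3 (0.48) and Arpc2 (0.46), of which Arpc2 was not called after the correction (0.33, adjusted p = 0.0614). Of 13 tested genes of IgG recycling and endosomal traffic, 3 were higher and 0 lower (median 0.22), beside 11.8% and 13.5% of all genes. The correction gave 5 higher and 0 lower, beside 18.5% and 8.38% of all genes. The 3 higher before the correction were the endosomal GTPases Rab11b (0.66), Rab7 (0.54) and Rab5a (0.43).

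Of 23 transcription factors and receptors known to set Fc receptor levels, 4 were lower and 1 higher (median -0.26), beside 13.5% and 11.8% of all genes. Removal of length and GC trends left 3 lower and 2 higher (median -0.14), beside 8.38% and 18.5% of all genes. Cebpa, a myeloid transcription factor, had 18.7, 14.2 and 16.0 CPM in control libraries and 3.32, 3.29 and 3.73 in knockout libraries (log2 fold change -2.23, SE 0.20, adjusted p = 0.000157). Il10ra, a chain of the interleukin 10 receptor, fell from 9.34 ± 2.22 to 1.96 ± 0.28 CPM (-2.25). Both were also lower after the length and GC correction, as was Tgfbr2 (-0.73 before, -0.38 after). Elf1 was lower only before it (-0.47, and -0.26 with adjusted p = 0.0805 after). Cebpb, a related factor, rose (0.60). Ifngr1, the receptor through which interferon gamma raises FcγRI, did not pass the test (-0.31, adjusted p = 0.127).

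**Figure D5:**
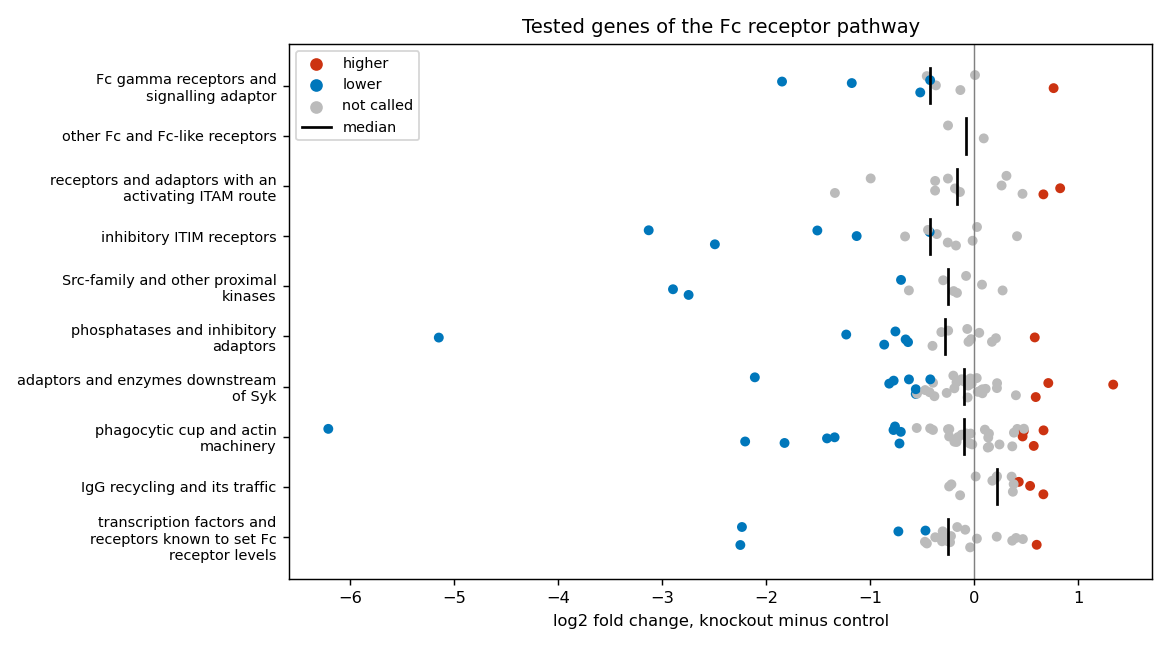
Log2 fold change (horizontal axis, knockout minus control) of every tested gene in the 9 receptor and signalling genes and the 9 pathway lists, coloured by call, with black bars at each list's median; vertical scatter within a row has no meaning. Medians lie from -0.43 (list of ITIM receptors) to 0.22 (IgG recycling).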

How the data were processed

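The deposited values were whole-number read counts per gene made by the authors, unscaled. The submitters' processing notes name Trimmomatic 0.39, STAR 2.7.5c and StringTie 2.1.7 with build mm10; how reads were counted, with which annotation and strand setting, is not given in the sources used here. Columns were matched to samples by name. Genes were filtered with filterByExpr (11453 of 31205 kept), scaled by TMM and tested with edgeR 4.0.16 (glmQLFit and glmQLFTest, R 4.3.3), two-sided, with Benjamini-Hochberg adjustment over all genes tested and a threshold of 0.05. Log2 fold changes are knockout minus control. CPM use TMM-scaled totals. No pair within a group looked like a duplicate (chi-square per degree of freedom of at least 15.2). Knockout libraries 2 and 3 gave 20.6. Knockout library 1 gave 50.4 and 48.5 against them, and 36.7 against control library 1. The measure grows with read depth, which was lowest in library 1 of each group. On simulated counts of this comparison, with 11476 genes tested, 85% of genes changed by a log2 step of 1 and 100% of those changed by 2 were called, and 1.6% of calls were false. That simulation changed 100 and 99 tested genes by these steps and gave every gene a dispersion of 0.03. It held no odd library and no length trend, so its rates need not hold for the calls reported here.

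Positions, exon lengths and GC content (longest transcript) came from GENCODE M21. It held 30204 of the 31205 symbols as written and 313 more as synonyms; 632 were not found and 56 were ambiguous. Alternatives were other scalings, filters and tests (DESeq2 1.42.0, limma-voom 3.58.1), the replicate number as a block, and leaving out each library. Removal of length and GC trends (loess, span 0.3) was added after seeing the data. The members and lists were chosen with earlier results of these data known. Named were the 9 members, Cd274, up to 4 called genes per list and direction with the lowest adjusted p and groups that do not overlap, the genes most like each called member, called neighbours and marker genes. Genes named beside these as not passing the test were chosen after their values were seen. Some results for genes of these lists are not reported here.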

Additional observations from a re-analysis of the deposited data

How the results depend on the processing

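Counts of calls depended on single libraries. Leaving out 1 library at a time gave 166 to 2346 genes higher and 472 to 2616 lower (1353 and 1543 with all), 0 to 1 members higher and 1 to 4 lower, and 2 to 23 pathway genes higher and 17 to 51 lower. Total counts alone (median over all genes -0.14) gave 667 genes higher and 2212 lower, and 5 pathway genes higher, in place of 14. Removal of length and GC trends gave 2104 genes higher and 954 lower, 0 members higher, and 23 pathway genes higher and 22 lower. With the longest transcript as the length it gave 815 genes lower, 0 members higher and 20 pathway genes lower.

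Whether the replicate number pairs the libraries cannot be told from 3 libraries per group. Deviations of same-numbered libraries correlated at 0.154, -0.064 and 0.358, and those of differently numbered libraries at -0.324 to 0.141. With the replicate block 1480 genes were higher and 1732 lower, Inpp5d was not called (-0.42, adjusted p = 0.0557), and the other 4 member calls held. The block with the length and GC correction gave 2079 genes higher and 985 lower, 25 pathway genes higher and 22 lower, and Fcer1g was called (0.51, adjusted p = 0.0399).

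Changes near 0 crossed it. Fcgr4 ranged from -0.39 to 0.26 when 1 library was left out (0.26 without control library 3, 0.13 without knockout library 1). Lyn was -0.018 with upper-quartile factors, -0.15 with total counts alone and -0.0029 with a filter of 1 CPM in 3 libraries, and ranged from -0.0414 to 0.0726 when 1 library was left out. The cause was not tested. Ptprc was 0.32 with length and GC trends removed, with and without the block (-0.32 before). With DESeq2 and with limma-voom the same 5 members were called.

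Per kilobase of the longest transcript, levels in control were 2.24 for Fcgr2b, 39.7 for Fcgr3, 332 for Fcer1g, 2.52 for Fcgrt, 13.5 for Syk, 31.9 for Lyn and 50.8 for Inpp5d, and in knockout 30.7 for Fcgr3, 562 for Fcer1g, 9.45 for Syk, 32.1 for Lyn and 37.8 for Inpp5d. Few reads limit Fcgr2b, Fcgr4 and Fcgrt, whose libraries held 14 to 172 reads.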
